A study of Mus musculus with 10 samples.

Results

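The mitochondrial genome encodes a small set of proteins of the respiratory chain, and the transcripts of 10 of its protein-coding genes were followed through the hearts of 10 male mice. They were taken by name from the deposited table: mt-Nd1, mt-Nd2, mt-Co1, mt-Co2, mt-Atp6, mt-Co3, mt-Nd3, mt-Nd4, mt-Nd5 and mt-Cytb, which are 10 of the 15341 genes listed there. The plasma S1Pless group, 5 hearts, had the genotype Sphk1f/-:Sphk2f/-:Mx1Cre+. The control group, 5 hearts of littermates, had the genotype Sphk1f/-:Sphk2f/-:Mx1Cre-. Both groups therefore carried 1 floxed and 1 null allele of each sphingosine kinase gene and differed in the Cre transgene. Sphingosine 1-phosphate (S1P) is a lipid messenger made by these kinases. Mx1-Cre is switched on by interferon, mainly in the blood-forming system but also in other tissues, so the groups do not separate S1P in plasma from S1P made by the cells of the heart. The labels used here do not give the age of the mice or an inducing treatment.

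Mitochondrial DNA is transcribed from both strands into long precursors, which are cut at the transfer RNAs between the genes and then polyadenylated. The mRNAs of 1 strand therefore start out together, and differences between their levels are set mostly afterwards, by processing, stability and decay. Their proteins join nuclear-encoded subunits in complexes I, III, IV and V, and heart muscle is one of the tissues richest in mitochondria. Nuclear chromosomes also carry inserted copies of mitochondrial DNA, some of them nearly identical to it.

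Such copies are described first, because they decide which bases of a mitochondrial mRNA can be told from nuclear sequence. In GENCODE M21 transcripts (build GRCm38, older than the build of the counts, so places are given within the transcript only), each stretch of 75 bases in a mitochondrial mRNA was looked for in 141730 other transcripts. At least 1 stretch of 50 bases was shared with 14 other genes, and 0 of these 14 are rows of the table analysed here. Whole genes were copied in some cases: mt-Co2 matched the pseudogene Gm28661 over 681 of 681 aligned bases, mt-Atp6 matched Gm10925 over 678 of 678, and mt-Co3 matched Gm28437 over 783 of 783. These pseudogenes lie on chromosome 1, as does Gm28438, which matched mt-Nd3 at 344 of 345 bases. The first bases of mt-Atp6 and mt-Nd3 are shown with their copies, and a stretch of mt-Nd2 with its more diverged copy Gm13339 on chromosome 2 for contrast. Capitals mark the bases that differ within a pair.
mt-Atp6, bases 1 to 60: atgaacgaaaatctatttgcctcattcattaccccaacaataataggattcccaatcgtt
Gm10925, bases 1 to 60: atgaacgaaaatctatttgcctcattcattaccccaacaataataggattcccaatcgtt
mt-Nd3, bases 1 to 60: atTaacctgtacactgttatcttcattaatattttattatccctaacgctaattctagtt
Gm28438, bases 1 to 60: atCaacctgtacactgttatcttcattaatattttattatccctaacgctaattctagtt
mt-Nd2, bases 667 to 726: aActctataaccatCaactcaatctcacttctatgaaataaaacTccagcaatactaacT
Gm13339, bases 139 to 198: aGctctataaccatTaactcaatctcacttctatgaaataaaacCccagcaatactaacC

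The mt-Atp6 pair differed at 0 of these 60 bases, the mt-Nd3 pair at 1 and the mt-Nd2 pair at 4. Counted over whole transcripts, another transcript held 99.5% of the 75-base stretches of mt-Co2, 99.5% of those of mt-Atp6, 99.9% of those of mt-Co3 and 97.8% of those of mt-Nd3. The share was 61.5% for mt-Nd4, whose first 876 of 1378 bases are identical to Gm28439, and 39.8% for mt-Co1. It was 5.71% for mt-Nd2, 1.66% for mt-Nd5 and 0% for mt-Nd1 and mt-Cytb. The read length is not given, and the share changes with the length of the stretch. At 50 and 100 bases it was 51.1% and 30.8% for mt-Co1, 62.2% and 60.8% for mt-Nd4, and 7.61% and 0% for mt-Nd5. Only annotated transcripts were searched, so copies elsewhere in the nuclear genome are not in these shares.

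The deposited counts of the 10 mRNAs fell into 2 sets as well. The 6 mRNAs mt-Nd1, mt-Nd2, mt-Co1, mt-Nd4, mt-Nd5 and mt-Cytb had 398821 to 1493167 counts in each heart. The other 4 had 0 to 146 counts per heart and together made up 0.00339% of the 10 genes' counts. mt-Co2 (ENSMUSG00000064354), a core subunit of complex IV, had 3, 3, 2, 2 and 1 counts in S1Pless hearts 1 to 5 and 6, 56, 109, 3 and 18 in controls 1 to 5. The groups met at 3 counts, and 2 controls held most of the reads. mt-Atp6 (ENSMUSG00000064357), a subunit of the proton channel of ATP synthase (complex V), had 0, 1, 1, 6 and 119 counts in S1Pless hearts and 2, 3, 2, 4 and 1 in controls. mt-Co3 (ENSMUSG00000064358), another core subunit of complex IV, had 146, 4, 0, 1 and 1 counts in S1Pless hearts and 2, 1, 3, 1 and 0 in controls. In both genes a single S1Pless heart held most of the counts, and it was heart 5 for mt-Atp6 and heart 1 for mt-Co3. A count of 0 allows a share of up to 1.44e-05% of all counts for mt-Atp6 in S1Pless heart 1, and of up to 1.83e-05% and 1.63e-05% for mt-Co3 in S1Pless heart 3 and control heart 5. mt-Nd3 (ENSMUSG00000064360), a subunit of the membrane arm of complex I, was low but even, with 131, 112, 75, 113 and 107 counts in S1Pless hearts and 132, 137, 142, 108 and 91 in controls.

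Subunits of the same enzyme thus stood at opposite ends of the table: mt-Co1 had 895459 counts or more in every heart, while mt-Co2 had 109 or fewer. How reads that match several places were counted is not given in the sources used here, and its part in these counts was not tested. The same division held for mt-Nd4l, a further complex I subunit that is not among the 10, with 98.7% of its stretches shared and 6 to 22 counts per heart. mt-Nd6, the complex I subunit encoded on the opposite strand, had 0% shared and 4313 to 10494 counts. mt-Atp8, with 0% shared, is not among the 12 mitochondrial genes with a row in the deposited table, so it has no count to set beside this division. One further gene listed as a possible copy, Gm11273, was in the table at 0.25 to 0.767 CPM (a count scaled to a common library total) in S1Pless hearts and 0.197 to 0.726 in controls, and it shares no 50-base stretch with a mitochondrial mRNA. The counts of mt-Co2, mt-Atp6, mt-Co3 and mt-Nd3 are therefore given as deposited and are not read as levels of these mRNAs.

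**Figure D1:**
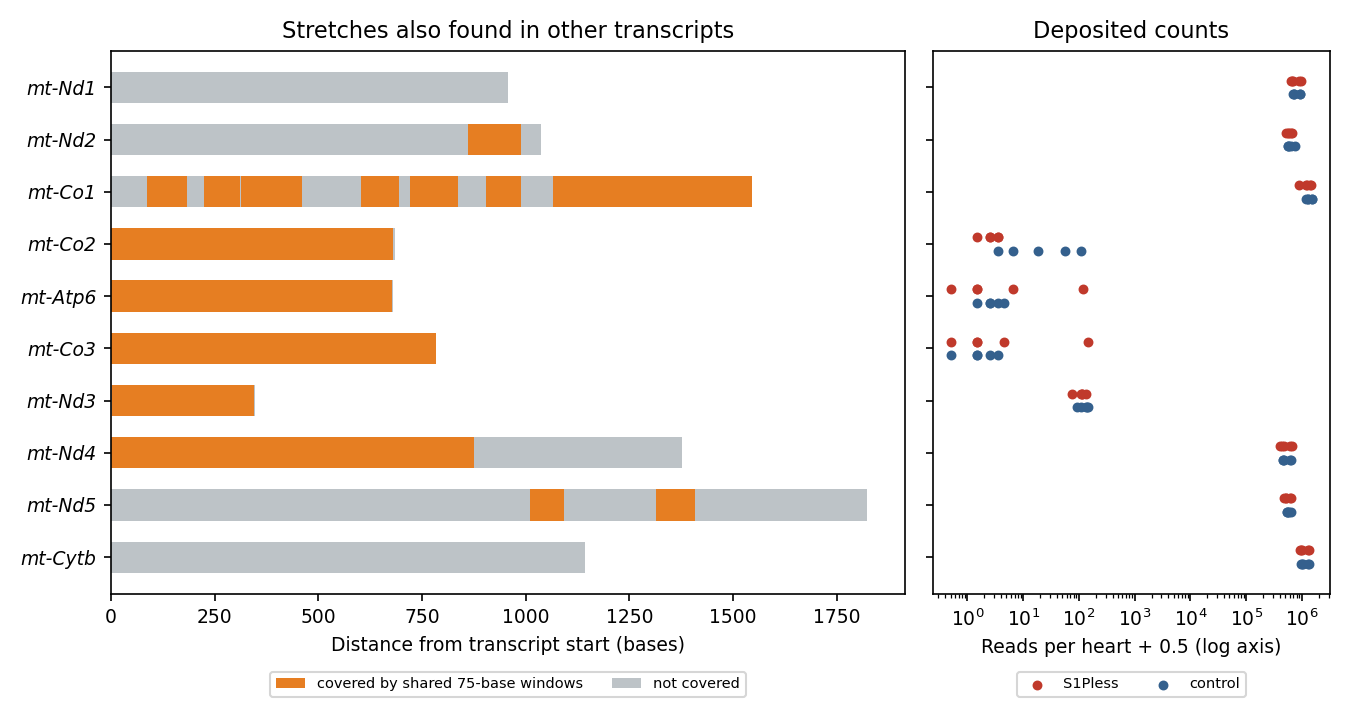
Left, each of the 10 mRNAs drawn to scale in bases from its start, with stretches covered by 75-base windows that also occur in another annotated transcript in orange. Right, deposited counts per heart (plus 0.5, log axis) for S1Pless (red) and control (blue): the 4 mRNAs covered almost throughout had 0 to 146 counts, and the other 6 had 398821 or more.

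The 10 mRNAs together took a large part of all counts in both groups, and the difference between the groups was smaller than the spread within them. Their share was 27.06%, 27.01%, 23.73%, 22.68% and 22.92% in S1Pless hearts 1 to 5, and 33.35%, 23.69%, 27.06%, 24.77% and 25.31% in controls 1 to 5. The mean was 24.68% ± 2.18 in S1Pless hearts and 26.84% ± 3.84 in controls (SD, n = 5 each), a difference of -2.15 percentage points. The groups overlapped, and control 1 alone lay above all other hearts. Without control 1 the controls had 23.7% to 27.1% and a mean of 25.2% ± 1.41 (n = 4), and the difference shrank to -0.526 points. Counting error was small beside this, with Wilson 95% intervals no wider than 0.0223 points on either side.

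Measured against nuclear transcripts, the members had 37.1, 37.0, 31.1, 29.4 and 29.7 counts per 100 nuclear counts in S1Pless hearts and 50.1, 31.1, 37.1, 32.9 and 33.9 in controls. Control 1 again stood above the rest, and the other 9 hearts lay between 29.35 and 37.11. Among hearts whose title number begins with 38, the share of all counts was 25.9% ± 1.91 in S1Pless hearts (n = 3) and 27.2% ± 4.32 in controls (n = 4). Among those whose number begins with 44 it was 22.8% ± 0.165 in S1Pless hearts (n = 2) and 25.3% in the 1 control. The labels do not say what these numbers mark. In whole-heart RNA, fewer cells of a type and less RNA per cell cannot be told apart.

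**Figure D2:**
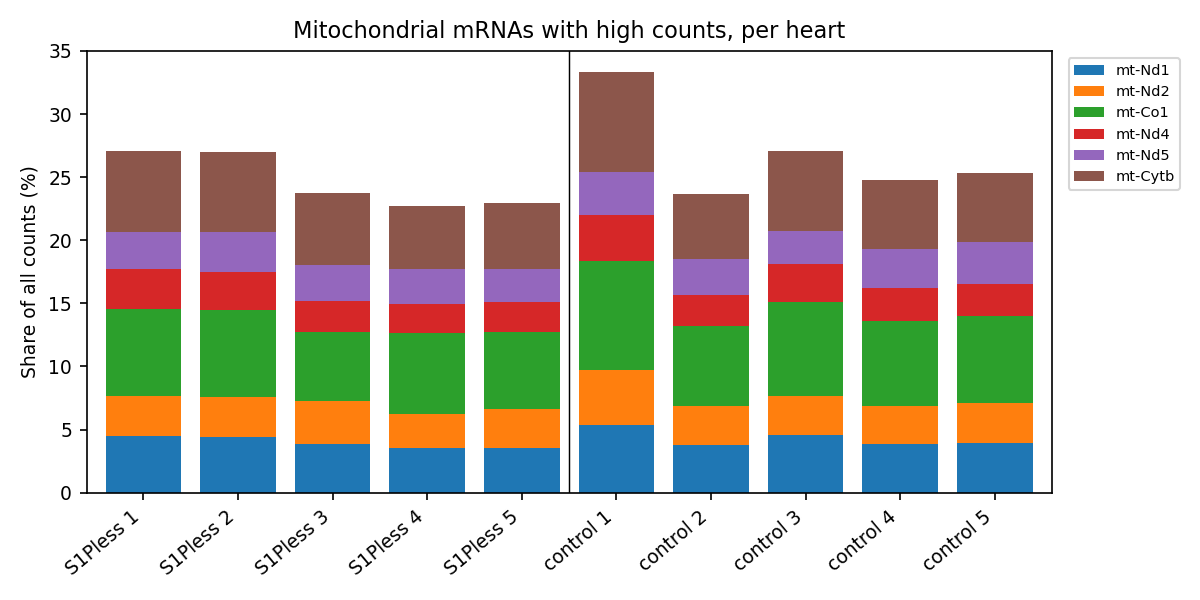
Share of all counts (%) in each heart, S1Pless on the left and control on the right, stacked by the 6 mRNAs that hold nearly all of the counts. Control 1 reaches 33.35%, and the other 9 hearts lie between 22.68% and 27.06%.

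Taken gene by gene, 7 of the 10 mRNAs passed the filter on low counts and 0 were called by the quasi-likelihood test of edgeR, with p-values adjusted by the Benjamini-Hochberg method over all genes. Of all 12992 genes tested, 3.72% were called in either direction and 0.316% were called lower. CPM values were scaled by TMM factors, which adjust each library total so that most genes keep the same level between libraries. The 3 mRNAs that failed the filter were mt-Co2, mt-Atp6 and mt-Co3. At an unadjusted p below 0.05 there were 2, mt-Co1 and mt-Nd3, while 19.9% of all genes tested had such a p, 6.82% with a lower level. DESeq2 called 0 with 4 at an unadjusted p below 0.05, and limma-voom with quality weights called 0 with 0 below it. The share of all genes with such a p was not computed for these other tools.

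Of the complex I subunits, mt-Nd1 (ENSMUSG00000064341), which lies in the membrane arm next to the quinone site, had 42509, 44632, 36585, 33597 and 32958 CPM in S1Pless hearts and 60921, 37782, 48778, 38964 and 40160 CPM in controls. Its log2 fold change was -0.25 ± 0.15 (SE, edgeR adjusted p = 0.378). mt-Nd2 (ENSMUSG00000064345), one of the proton-pumping subunits, had 29670, 31303, 32132, 26226 and 28020 CPM in S1Pless hearts and 49281, 30772, 33957, 30489 and 33066 CPM in controls. For mt-Nd2 the log2 fold change was -0.27 ± 0.14 (adjusted p = 0.311). The groups overlapped in both genes, and control 1 was the highest heart in each. mt-Nd4 (ENSMUSG00000064363), also a pumping subunit, had 25526 ± 4345 CPM in S1Pless hearts and 30075 ± 7072 CPM in controls (SD, n = 5 each), a log2 fold change of -0.24 ± 0.16 (edgeR adjusted p = 0.451). mt-Nd5 (ENSMUSG00000064367), the pumping subunit at the far end of the membrane arm, had 27483 ± 2651 CPM in S1Pless hearts and 32233 ± 4375 CPM in controls, a log2 fold change of -0.23 ± 0.12 (edgeR adjusted p = 0.309). mt-Nd5 ranged from 24581 to 31786 CPM in S1Pless hearts and from 28275 to 38461 CPM in controls, so these groups overlapped too. The few mt-Nd3 counts gave 5.33 ± 0.626 CPM in S1Pless hearts and 6.91 ± 1.43 CPM in controls (log2 fold change -0.37 ± 0.15, edgeR adjusted p = 0.198).

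In complex III, mt-Cytb (ENSMUSG00000064370), the cytochrome b that holds the quinone-binding sites, had 60111, 63588, 54247, 47751 and 47613 CPM in S1Pless hearts and 89673, 51429, 68282, 55681 and 55871 CPM in controls. The log2 fold change was -0.23 ± 0.16 (edgeR adjusted p = 0.445). In complex IV, mt-Co1 (ENSMUSG00000064351), the catalytic subunit of cytochrome c oxidase, had 64979, 69121, 51969, 61125 and 56083 CPM in S1Pless hearts and 97520, 63444, 79498, 68592 and 71129 CPM in controls. Its log2 fold change of -0.33 ± 0.13 was the largest in size among the 6 abundant mRNAs. The unadjusted p was 0.0296 and the edgeR adjusted p 0.198. Of the S1Pless hearts, 3 of 5 lay below the lowest control of mt-Co1, at 63444 CPM, and hearts 1 and 2 lay above it. Outside the 10, mt-Nd6 had 262 ± 68.1 CPM in S1Pless hearts and 376 ± 182 CPM in controls (log2 fold change -0.52 ± 0.27, edgeR adjusted p = 0.304), and the log2 fold change was -0.19 without control 1.

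**Figure D3:**
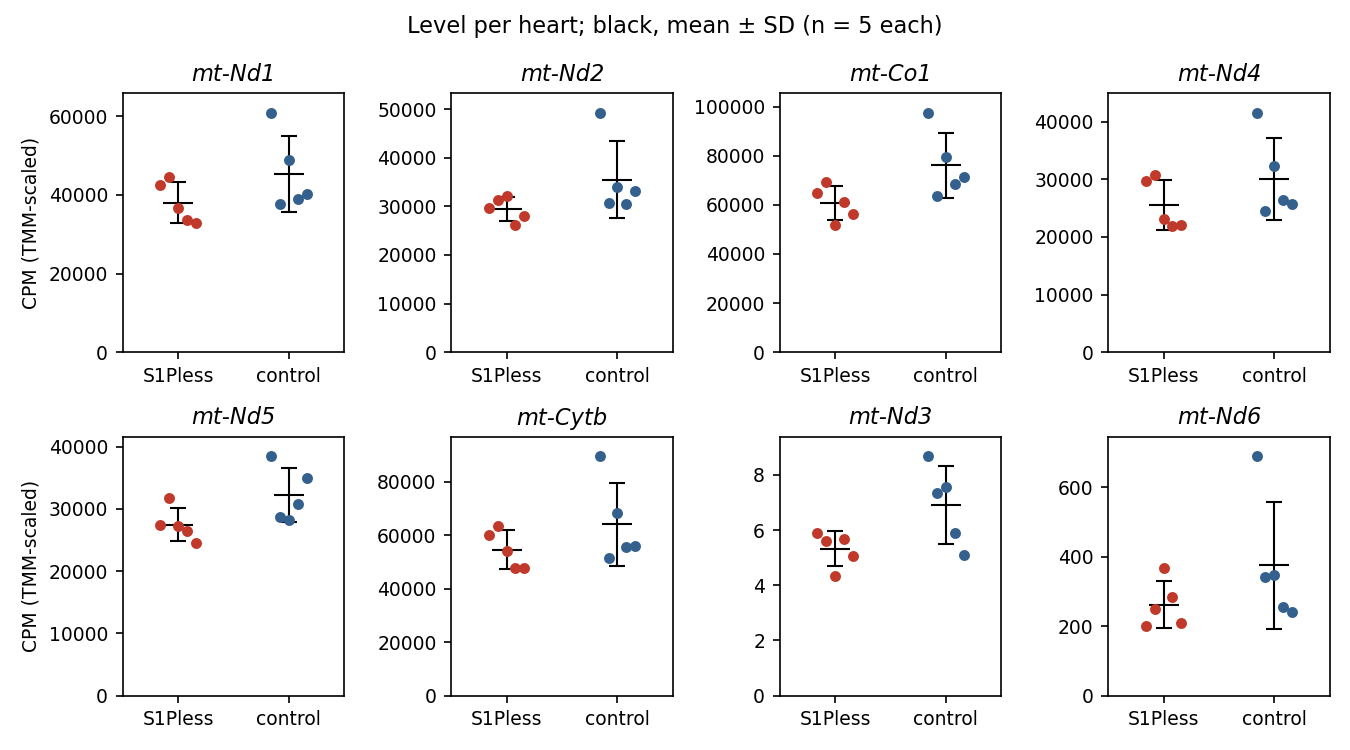
TMM-scaled CPM of the 6 abundant mRNAs, of mt-Nd3 and of mt-Nd6 in each heart, S1Pless left and control right, with the mean and SD in black (n = 5 each). The groups overlap in all 8 panels, and the highest control point is control 1 in each.

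All 7 estimates were below 0, with mt-Nd3 resting on few counts. Their size depended on single hearts, chiefly control 1, and, unless set against the median of all genes, on the scaling. Without control 1 the log2 fold changes were -0.13 for mt-Nd1, -0.13 for mt-Nd2, -0.23 for mt-Co1, -0.29 for mt-Nd3, -0.10 for mt-Nd4, -0.17 for mt-Nd5 and -0.09 for mt-Cytb, and 0 of 7 had an unadjusted p below 0.05. Leaving out S1Pless heart 3 instead also gave 0 of 7, with -0.27 for mt-Co1 and -0.30 for mt-Nd3. For the 7 mRNAs, these next values again use all hearts. With library totals alone they ran from -0.23 for mt-Nd3 to -0.09 for mt-Cytb, while the median of all genes tested moved to 0.12, against -0.01 with TMM factors. Set against that median, mt-Nd1 stood at -0.24 with TMM factors and at -0.23 with library totals, and mt-Co1 at -0.31 and -0.30. Without control 1, and set against the median of that fit, mt-Nd1 stood at -0.11 and mt-Co1 at -0.21. The TMM factors were 0.9963 to 1.085 in S1Pless hearts and 0.8839 to 1.001 in controls. Across the 10 hearts they had a Pearson r of -0.761 with the share of the 10 mRNAs, which enters the same library totals.

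The proportions between the mRNAs are free of the library scaling, and here too the groups overlapped. Among the counts of the 10, mt-Co1 took 25.5%, 25.5%, 23.1%, 28.2% and 26.5% in S1Pless hearts and 25.8%, 26.8%, 27.3%, 27.3% and 27.3% in controls. Both the lowest and the highest heart were S1Pless. mt-Cytb followed with 23.1% ± 0.85 in S1Pless hearts and 22.5% ± 1.04 in controls (SD, n = 5 each), and mt-Nd1 with 16.1% ± 0.538 in S1Pless hearts and 15.96% ± 0.543 in controls. mt-Nd2 took 12.6% ± 1.17 in S1Pless hearts and 12.5% ± 0.594 in controls. mt-Nd5 took 11.7% ± 0.552 in S1Pless hearts and 11.5% ± 1.54 in controls, and mt-Nd4 took 10.8% ± 0.703 in S1Pless hearts and 10.6% ± 0.503 in controls. S1Pless heart 3 had the lowest share of mt-Co1 and the highest of mt-Nd2, at 14.3%, of all hearts.

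Ratios of counts were compared for all 45 pairs of the 10 mRNAs with two-sided exact permutation tests on the log2 ratio. With all hearts the smallest possible p is 0.00794. After Benjamini-Hochberg adjustment over the 45 pairs, 0 passed with all hearts (lowest adjusted p = 0.0714). Without control 1 the smallest p of these tests was 0.0159, and 0 passed (lowest adjusted p = 0.143). With so few hearts, a single fully separated ratio could not pass after this adjustment. The 0 passing pairs therefore say little about any single ratio. Before adjustment 8 pairs had p below 0.05, and all 8 involved mt-Co2. The smallest p was shared by 5 of them, the ratios of mt-Co2 with mt-Nd1, mt-Nd2, mt-Nd4, mt-Nd5 and mt-Cytb (exact permutation p = 0.00794, adjusted p = 0.0714), which rest on 1 to 3 counts of mt-Co2 in each S1Pless heart. The same holds for the ratios mt-Co2/mt-Co1, mt-Co3/mt-Atp6 and mt-Nd3/mt-Co3, each of which has an mRNA with a count of 3 or less in most S1Pless hearts.

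Among the 6 abundant mRNAs the 15 ratios were close between groups. None had an exact permutation p below 0.05 (lowest adjusted p = 0.86), and the largest difference between group means was 0.106 on the log2 scale, for mt-Cytb/mt-Co1 (exact permutation p = 0.238). A p that misses the threshold does not show that the ratios were equal. mt-Cytb/mt-Co1 was 0.925, 0.92, 1.04, 0.781 and 0.849 in S1Pless hearts and 0.92, 0.811, 0.859, 0.812 and 0.785 in controls. mt-Cytb/mt-Nd1 stayed in a narrow range, at 1.41, 1.42, 1.48, 1.42 and 1.44 in S1Pless hearts and 1.47, 1.36, 1.4, 1.43 and 1.39 in controls. The spread within each group was wider for the neighbours mt-Nd1 and mt-Nd2. Their ratio mt-Nd2/mt-Nd1 was 0.698, 0.701, 0.878, 0.781 and 0.85 in S1Pless hearts and 0.809, 0.814, 0.696, 0.782 and 0.823 in controls (log2 difference -0.01, exact permutation p = 0.937).

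mt-Nd5 was the least tied to the others. mt-Nd5/mt-Nd4 was 0.922, 1.03, 1.17, 1.21 and 1.11 in S1Pless hearts and 0.926, 1.17, 0.877, 1.17 and 1.36 in controls (exact permutation p = 0.984). mt-Cytb/mt-Nd5 was 2.19, 2.0, 2.0, 1.81 and 1.94 in S1Pless hearts and 2.33, 1.79, 2.41, 1.81 and 1.6 in controls (exact permutation p = 0.865). In both ratios the controls spread wider, and the S1Pless hearts lay within their range for mt-Cytb/mt-Nd5 and mt-Nd5/mt-Nd4. Among the 3 S1Pless hearts and 4 controls with title numbers that begin with 38, the log2 ratio of mt-Nd5 to mt-Nd4 differed by 0.02, and among the 2 S1Pless hearts and 1 control with 44 by -0.23, with too few hearts for a test. As a description over the 10 hearts, Pearson's r between log2 CPM of 2 mRNAs ran from 0.711 for mt-Nd4 with mt-Nd5 to 0.991 for mt-Nd1 with mt-Cytb. The 5 pairs with mt-Nd5 were the 5 lowest of 15, at 0.711 to 0.801. All of these values share library and scaling.

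**Figure D4:**
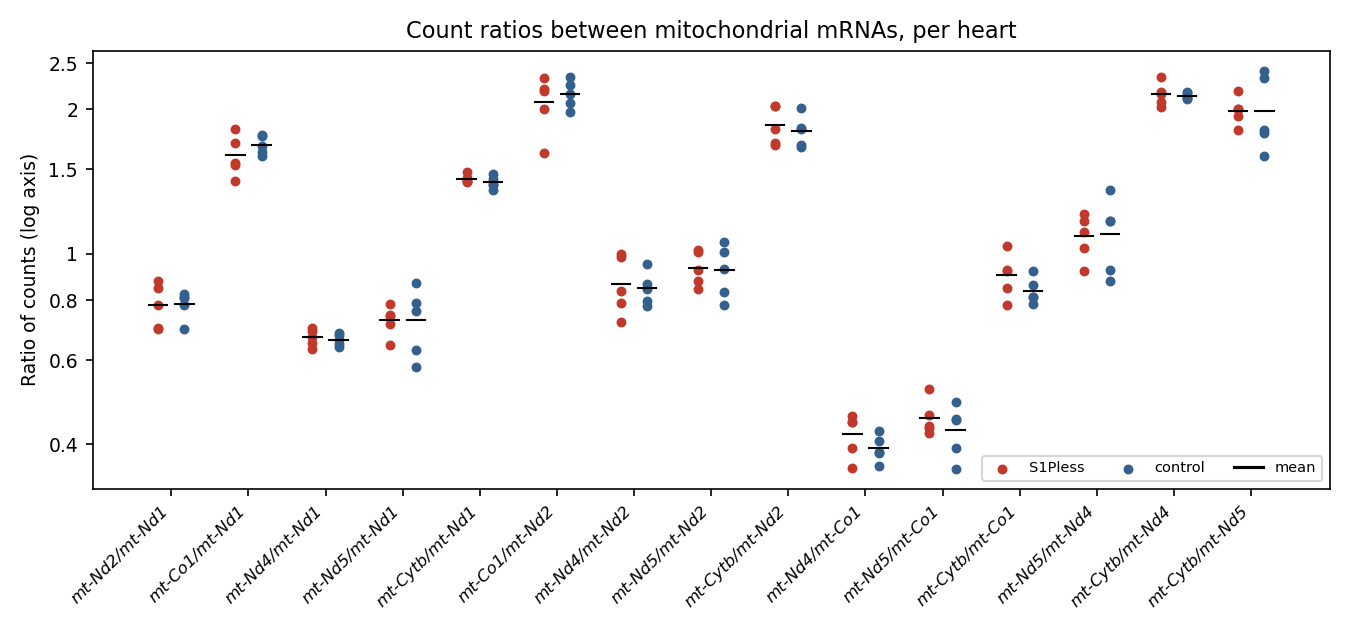
Ratios of counts (log axis) for the 15 pairs of the 6 abundant mRNAs, with S1Pless hearts (red) left of control hearts (blue) and black bars at the group means. The groups overlap for every pair, and mt-Cytb/mt-Nd1 is tight while ratios with mt-Nd5 spread widely, from 1.6 to 2.41 for mt-Cytb/mt-Nd5 in controls.

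Per length of transcript the order was nearly the same in every heart. Over all 10 hearts the levels in CPM per kilobase of transcript were 51944 ± 10919 for mt-Cytb, 44237 ± 8328 for mt-Co1, 43562 ± 8689 for mt-Nd1, 31302 ± 6094 for mt-Nd2, 20174 ± 4376 for mt-Nd4 and 16370 ± 2319 for mt-Nd5 (SD, n = 10). Within hearts, mt-Cytb was first in 10 of 10 and mt-Nd2 next below mt-Co1 and mt-Nd1 in 10 of 10. mt-Co1 and mt-Nd1 did not separate, with mt-Co1 above in 6 hearts and mt-Nd1 above in 4. mt-Nd4 lay above mt-Nd5 in 9 of 10, the exception being control 5. mt-Nd6 had 614 ± 275 CPM per kilobase.

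This order depends on how shared stretches are treated. Divided instead by the number of 75-base stretches not found in another transcript, the level over all 10 hearts was 77.2 ± 14.5 CPM per stretch for mt-Co1, 55.5 ± 11.7 for mt-Cytb, 55.4 ± 12 for mt-Nd4, 47.2 ± 9.42 for mt-Nd1, 35.7 ± 6.96 for mt-Nd2 and 17.3 ± 2.46 for mt-Nd5. mt-Co1 then came first, and mt-Nd4 moved next to mt-Cytb, on a scale computed for this stretch length only. The 4 sparse mRNAs had few such stretches, between 1 and 6 each, unshared only through the outermost few bases of the transcript. Their values ran from 0.224 ± 0.583 CPM per stretch for mt-Atp6 to 1.02 ± 0.222 for mt-Nd3. With so few stretches, this scale cannot show whether these mRNAs were low.

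The 3′ ends of the abundant mRNAs show another feature of these genes. The libraries came from an mRNA kit, and several mitochondrial mRNAs carry an incomplete stop codon that polyadenylation completes. The last 30 bases of mt-Nd1 and mt-Co1, which end in a full stop codon, and of mt-Nd4 and mt-Cytb, which end in 1 base past the last full codon, are given with those bases in capitals.
mt-Nd1: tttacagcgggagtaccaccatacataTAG
mt-Co1: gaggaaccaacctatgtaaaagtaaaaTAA
mt-Nd4: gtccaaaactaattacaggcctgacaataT
mt-Cytb: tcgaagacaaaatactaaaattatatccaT

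Both kinds of end occurred among the abundant mRNAs. mt-Cytb, with the single T, had the highest level per kilobase, and mt-Nd4, also with a single T, stood below mt-Nd1, mt-Co1 and mt-Nd2. Among the sparse mRNAs, mt-Co3 ends in a single T and mt-Co2, mt-Atp6 and mt-Nd3 in a full stop codon.

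The counts of mitochondrial subunits per count of their nuclear-encoded partners overlapped between the groups. For complex I, the 5 mitochondrial subunits among the 10 had 13.6, 14.8, 14.3, 13.9 and 15.0 counts per count of 34 nuclear subunits in S1Pless hearts, and 16, 14.3, 11.8, 14.4 and 15.8 in controls. For complex III, mt-Cytb had 12.3 ± 0.762 counts per count of 9 nuclear subunits in S1Pless hearts and 12 ± 1.39 in controls (SD, n = 5 each). For complex IV the ratio to 14 nuclear subunits was 9.96 ± 1.26 in S1Pless hearts and 10.3 ± 1.28 in controls, almost all of it from mt-Co1. Over complexes I, III, IV and V together it was 7.06, 7.64, 7.08, 7.11 and 7.47 in S1Pless hearts and 8.11, 7.11, 6.24, 7.2 and 7.92 in controls. Every S1Pless heart lay between controls 3 and 1, the lowest and highest of all hearts. These ratios were given no test.

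The nuclear subunits themselves stood below 0 almost throughout, without a call. Of 79 tested subunits of complexes I to V, 78 had a log2 fold change below 0 and 0 were called in edgeR's test. At an unadjusted p below 0.05 there were 16, all lower, against 19.9% of all genes tested in either direction and 6.82% lower. Their median was -0.26, against -0.01 for all genes tested, 52.6% of which lay below 0 (edgeR, 12992 genes). By complex the median log2 fold change was -0.25 for I (34 genes), -0.26 for II (4 genes), -0.26 for III (9 genes), -0.29 for IV (14 genes) and -0.27 for V (18 genes). Without control 1 the median over the 79 was -0.18, and with library totals alone -0.12, with 77 and 76 below 0. The median of all genes tested was -0.02 without control 1 and 0.12 with library totals alone. In complex I, Ndufs1, which carries iron-sulfur clusters, had 601 ± 62.9 CPM in S1Pless hearts and 723 ± 38.8 CPM in controls (SD, n = 5 each, edgeR adjusted p = 0.162). Sdhc, a membrane anchor of complex II, had 369 ± 28.8 CPM in S1Pless hearts and 454 ± 45.6 CPM in controls (edgeR adjusted p = 0.117). Uqcrc2, a core protein of complex III, had 749 ± 60 CPM in S1Pless hearts and 892 ± 58.9 CPM in controls (edgeR adjusted p = 0.166). Cox8b, a muscle form of a complex IV subunit, had 232 ± 60.7 CPM in S1Pless hearts and 304 ± 82.9 CPM in controls (edgeR adjusted p = 0.294). Atp5o, in the stalk of ATP synthase, had 64.5 ± 8.29 CPM in S1Pless hearts and 80.8 ± 14.8 CPM in controls (edgeR adjusted p = 0.177).

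The genes that make, process and translate mitochondrial mRNAs gave 0 calls among 192 tested in edgeR's test, and 174 of them lay below 0. At an unadjusted p below 0.05 there were 27, of which 26 were lower, beside the 19.9% and 6.82% of all genes given above. Their median log2 fold change was -0.15, and -0.01 with library totals alone, where 107 of 192 lay below 0. The median of all genes tested was -0.01 with TMM factors and 0.12 with library totals alone, so the list stood below it in both. For transcription and replication of mitochondrial DNA, 16 of 20 were below 0 with a median of -0.10. Top1mt, the mitochondrial topoisomerase, had 5.84 ± 0.322 CPM in S1Pless hearts and 7.26 ± 0.839 CPM in controls (SD, n = 5 each, edgeR adjusted p = 0.143). Tfb1m, a methyltransferase of mitochondrial ribosomal RNA, had 11.0 ± 1.54 CPM in S1Pless hearts and 13.2 ± 1.29 CPM in controls (edgeR adjusted p = 0.229). Outside the naming rule and chosen after their values were seen, Polrmt, the mitochondrial RNA polymerase, had a log2 fold change of -0.09 ± 0.10 (SE, edgeR adjusted p = 0.667) and Tfam, which packages mitochondrial DNA and helps start its transcription, of -0.16 ± 0.08 (edgeR adjusted p = 0.314). Lrpprc, which stabilises mitochondrial mRNAs, stood at -0.16 ± 0.11 (edgeR adjusted p = 0.458).

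For RNA processing and stability, 25 of 30 genes were below 0 with a median log2 fold change of -0.14. Fastkd1 and Fastk belong to a family of RNA-binding proteins of mitochondria. Fastkd1 had 24.9 ± 1.24 CPM in S1Pless hearts and 29.3 ± 1.58 CPM in controls (SD, n = 5 each, edgeR adjusted p = 0.101), with all 5 S1Pless hearts below the lowest control. Fastk had 194 ± 9.99 CPM in S1Pless hearts and 222 ± 16 CPM in controls (edgeR adjusted p = 0.231). In the mitochondrial ribosome, 48 of 48 large and 29 of 31 small subunit genes were below 0, with medians of -0.15 and -0.14. Mrpl50, a large subunit protein, had 54.9 ± 3.76 CPM in S1Pless hearts and 65.3 ± 2.05 CPM in controls (edgeR adjusted p = 0.0845). The second large subunit gene named by the rule, Mrpl47, had 20.8 ± 2.23 CPM in S1Pless hearts and 25.7 ± 2.74 CPM in controls (edgeR adjusted p = 0.102). The small subunit genes Mrps16 and Mrps23 had log2 fold changes of -0.30 ± 0.14 and -0.22 ± 0.11 (SE, edgeR adjusted p = 0.253 and 0.293).

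Among mitochondrial translation factors, 16 of 17 were below 0 with a median log2 fold change of -0.15. Mrrf, the ribosome recycling factor, had 30.6 ± 1.64 CPM in S1Pless hearts and 35.1 ± 1.71 CPM in controls (SD, n = 5 each, edgeR adjusted p = 0.156). Mief1, a fission adaptor whose transcript also encodes a small protein tied to the mitochondrial ribosome, had 20.5 ± 1.65 CPM in S1Pless hearts and 23.8 ± 1.39 CPM in controls (edgeR adjusted p = 0.164). Of the assembly factors, 33 of 35 were below 0 with a median of -0.18. Tmem70, needed to assemble ATP synthase, had 78.0 ± 4.77 CPM in S1Pless hearts and 93.6 ± 6.35 CPM in controls (edgeR adjusted p = 0.0893). Ndufaf4, a complex I assembly factor, had 67.8 ± 3.65 CPM in S1Pless hearts and 80.8 ± 5.21 CPM in controls (edgeR adjusted p = 0.0902). In both genes every S1Pless heart lay below every control. The same held above for Fastkd1, Mrpl50, Mrrf, Mief1, Top1mt, Sdhc and Ndufs1. The groups overlapped for Tfb1m, Fastk, Mrpl47, Mrps16, Mrps23, Uqcrc2, Cox8b and Atp5o. These ranges use TMM factors, and the share of all genes that separate in this way was not computed. The genes were named for the smallest p in their lists, which favours separation, so the ranges are a description only. Some gaps were narrow: the highest S1Pless heart and the lowest control had 33.3 and 33.4 CPM for Mrrf, and 677 and 680 CPM for Ndufs1. Of the coactivators and nuclear respiratory factors, 8 of 12 were below 0. Gabpb1, a subunit of nuclear respiratory factor 2, lay above 0, at 22.8 ± 1.84 CPM in S1Pless hearts and 18.9 ± 1.77 CPM in controls (edgeR adjusted p = 0.112, and 0.0158 with library totals alone). Perm1, a muscle regulator of oxidative genes, had 312 ± 44.6 CPM in S1Pless hearts and 378 ± 53.7 CPM in controls (edgeR adjusted p = 0.246).

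**Figure D5:**
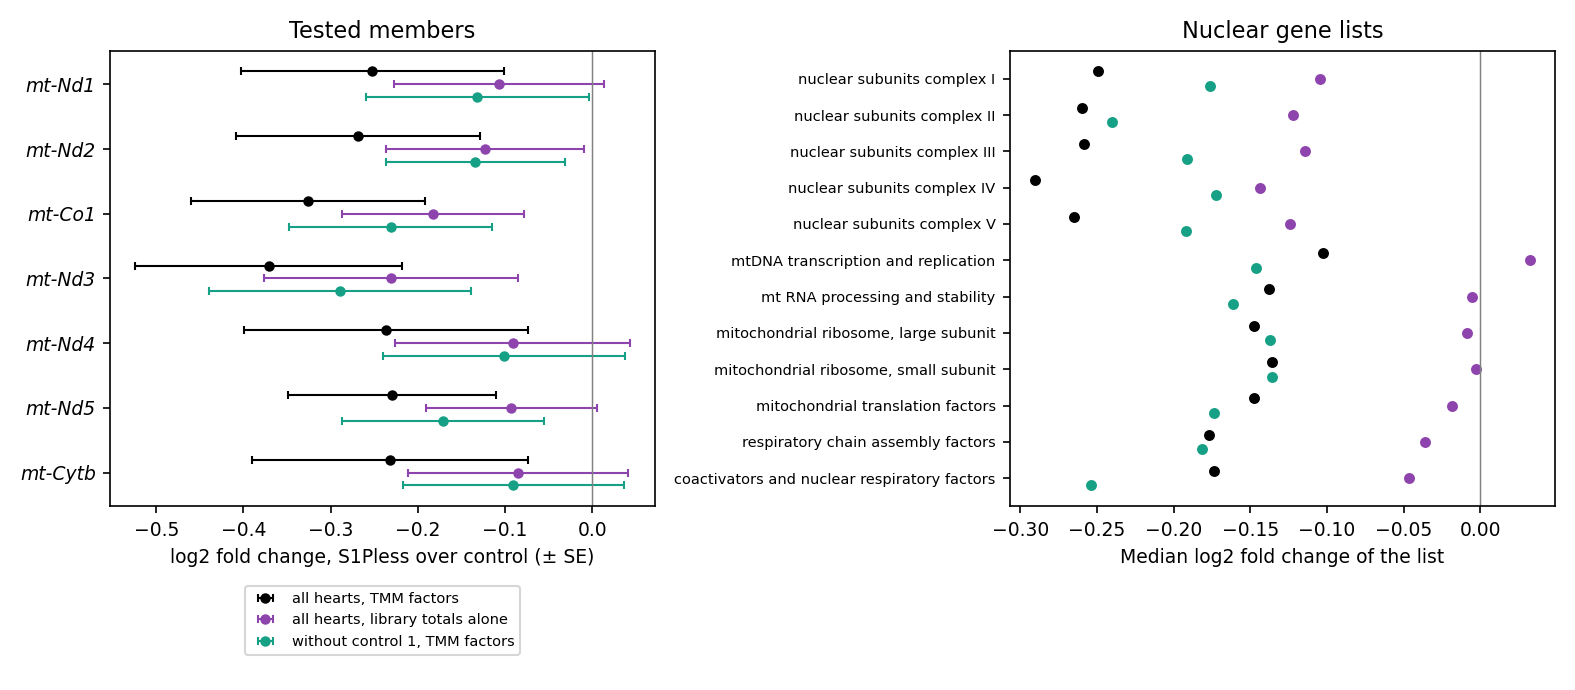
Left, log2 fold change of S1Pless over control (± SE) for the 7 tested mRNAs with TMM factors (black), with library totals alone (purple) and without control 1 (green). Right, median log2 fold change of each nuclear gene list under the same 3 settings. All 7 mRNAs lie below 0 in each setting, from -0.37 for mt-Nd3, which has few counts, to -0.09 for mt-Cytb. The median of transcription and replication genes lies above 0 with library totals alone, at 0.03, where the median of all genes tested is 0.12.

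Markers of heart cell types moved with the groups beside these values. The summed level of 10 cardiomyocyte markers was 66000 to 76960 CPM in S1Pless hearts and 81490 to 87380 CPM in controls. These ranges did not overlap with TMM factors, but with library totals alone they did, at 71560 to 78650 CPM in S1Pless hearts and 73860 to 82750 CPM in controls. All 10 had a log2 fold change below 0 with a median of -0.20. With library totals alone it was 9 of 10 and -0.06, where the median of all genes tested was 0.12. In edgeR's test 0 were called, with 1, Pln, at an unadjusted p below 0.05, and DESeq2 called 1. The summed macrophage markers were 360 to 796 CPM in S1Pless hearts and 223 to 290 CPM in controls, and 6 of 12 were called higher in edgeR's test, against 3.4% of all genes. That count was 0 with hearts blocked by neighbouring title numbers, 3 with the title number series as a covariate, 2 without any 1 of controls 2, 3, 4 and 5, and 10 with DESeq2 or library totals alone. The fibroblast sum was 1001 to 1318 CPM in S1Pless hearts and 784 to 1053 CPM in controls, and the endothelial sum 1204 to 1444 CPM in S1Pless hearts and 1131 to 1295 CPM in controls. With library totals alone the fibroblast ranges did not overlap, at 1046 to 1429 CPM in S1Pless hearts and 760.5 to 930.4 CPM in controls. The endothelial ranges overlapped there too. In edgeR's test 1 of 7 fibroblast markers (Dpep1) and 1 of 7 endothelial markers (Erg) were called higher, against 3.4% of all genes. Both counts were 0 with hearts blocked by neighbouring title numbers. Smooth muscle, pericyte, red cell, lymphocyte and brown adipocyte sums overlapped between the groups, and the skeletal muscle markers Myf6 and Myh4 were at 0 in all hearts. Per count of the cardiomyocyte markers, a ratio added after the data were seen, the 10 mRNAs had 3.73, 3.52, 3.02, 2.9 and 3.2 counts in S1Pless hearts and 4.51, 2.86, 3.33, 3.08 and 3.15 in controls. On that ratio the groups overlapped. The part of cell makeup in the mitochondrial values was not tested. The kinase genes that the model targets were not called in whole-heart RNA, with edgeR adjusted p-values of 0.168 for Sphk1 and 0.18 for Sphk2.

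The 5 nuclear genes whose log2 CPM followed the summed 10 mRNAs most closely over the 10 hearts, of 8707 with a mean of at least 10 CPM, were Syde2 (Pearson r = 0.957), Fkbp3 (0.946), Ndufs4 (0.945), Ndufv2 (0.945) and Gstk1 (0.943). Ndufs4 and Ndufv2 encode complex I subunits, and Gstk1 a glutathione transferase of mitochondria and peroxisomes. Within the S1Pless hearts r was 0.951 for Ndufs4 and 0.982 for Ndufv2, and within the controls 0.931 for Ndufs4 and 0.904 for Ndufv2. Without control 1 the 5 values were 0.908 for Syde2, 0.891 for Fkbp3, 0.94 for Ndufs4, 0.939 for Ndufv2 and 0.894 for Gstk1. These are the highest of many values over few hearts that share library scaling, and are given as a description.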

How the data were processed

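RNA was sequenced from 10 hearts. Per the labels' protocols, TRIzol and RNeasy kits were used for RNA and a stranded mRNA kit for the libraries. The authors deposited raw read counts per Ensembl gene in 1 table, with 16354071 to 20832566 counts per S1Pless heart and 17204491 to 20202283 per control. Per the submitters' processing notes, the tools were STAR 2.7.8a and featureCounts 2.0.1 and the build GRCm39. Not given in the sources used here are the annotation release, strand setting, read length and treatment of reads with several matches. Of 15341 genes, 347 had no count and 20 had no symbol in GENCODE M21.

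Groups follow the genotype in the labels, and replicates are numbered in accession order. The labels list the hearts separately and do not say which animals shared a litter. No pair of hearts agreed within sampling noise (lowest chi-square per degree of freedom 10.5 in 20 pairs within groups). The fit used edgeR 4.0.16 in R 4.3.3 on all genes: TMM factors, filterByExpr (minimum count 10), robust glmQLFit and glmQLFTest, two-sided, Benjamini-Hochberg adjustment and a threshold of 0.05. It was checked on simulated counts. Log2 CPM for likeness used a prior count of 2, and count ratios a pseudocount of 0.5. Exact permutation tests used SciPy 1.17.1, and alignments Biopython 1.88. One count was worth 0.0451 to 0.0658 CPM. Intervals and limits cover counting error only.

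The members and gene lists were chosen with earlier results of these data known. Named were all 10 mRNAs, the other mitochondrial genes and possible nuclear copies in the table, the 2 genes of each nuclear list with the smallest p where none was called (of each complex and marker list only some of these), 6 preset ratios, the ratios with the smallest p (the rule took 3, but 5 were tied, so all 5 are given), and the 5 most alike genes. Alternatives were other scaling factors, library totals alone, scaling by nuclear genes, DESeq2 1.42.0, limma-voom (limma 3.58.1), other filters, title number as covariate or block, and leaving out each heart.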

Additional observations from a re-analysis of the deposited data

Results flagged for a closer look

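In groups of 5 hearts, 78 sets of values were checked for a heart far from the others, and 5 were found. Chance alone gives about 1 in 20, which is close to the rate found here. The sets reuse the same counts and are not independent. Control 1 stood apart in mt-Nd2, with 49300 CPM against 30500 to 34000 CPM in the other controls. It also stood apart in mt-Nd6, with 690 CPM against 241 to 347 CPM in the other controls. In the count of the 10 mRNAs per cardiomyocyte marker count it had 4.51, against 2.86 to 3.33 in the other controls. S1Pless heart 5 stood apart in mt-Atp6, with 5.64 CPM against 0 to 0.302 CPM in the other S1Pless hearts. S1Pless heart 1 stood apart in mt-Co3, with 6.59 CPM against 0 to 0.2 CPM in the other S1Pless hearts. These last values rest on 119 and 146 counts, in mRNAs whose stretches almost all occur in an annotated nuclear copy as well. The reason for any of the 5 was not tested.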

How the results depend on the processing

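The 0 calls among the 10 mRNAs held under every alternative tried but 1: with no filter on low counts mt-Co2 passed (log2 fold change -4.18, edgeR adjusted p = 0.0376), from 1 to 3 counts in S1Pless hearts and 3 to 109 in controls. The estimates of the 7 tested mRNAs stayed below 0 throughout. With hearts blocked by neighbouring title numbers, 6 of 7 had an unadjusted p below 0.05 and 0 were called. The share of all genes with such a p was not computed under that block, so the 6 of 7 cannot be set against a background. Over all genes, 442 were called higher and 41 lower. DESeq2 called 764 higher and 264 lower, library totals alone 1420 and 13, and the title number block 80 and 8. Leaving out 1 heart gave 118 to 504 higher and 8 to 85 lower. In the nuclear lists, with 0 calls, DESeq2 called 10 genes lower (Tmem70, Ndufs1, Ndufa10, Sdhc, Sdha, Atp5a1, Fastkd1, Ndufaf4, Mrpl50 and Uqcrc2) and library totals alone called 1 higher, Gabpb1. Among title numbers that begin with 44, with 2 S1Pless hearts and 1 control, mt-Nd5/mt-Nd2 differed by -0.17 and mt-Nd5/mt-Co1 by -0.17 on the log2 scale. The cause of these shifts was not tested. The macrophage marker calls, 6 of 12, also depended on the setting (0 to 10), and the summed cardiomyocyte markers differed by -11400 CPM with TMM factors and by -4150 CPM with library totals alone, as recomputed after seeing the data. The other results moved by less than the spread or kept their side of the threshold. No paired analysis was possible because the labels do not say which littermates belong together and give no replicate numbers that the groups share. The title number block was chosen here, and the labels do not say what the number marks. For mt-Co2, mt-Atp6, mt-Co3 and mt-Nd3, counting limits what can be read.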
